A study of Mus musculus with 59 samples.

Results

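The 10 genes described here encode amino acid transporters (Slc7a5, Slc3a2, Slc7a8, Slc7a2, Slc38a2 and Slc1a5), the glutamine-making enzyme (Glul) and steps of branched-chain amino acid breakdown (Bcat2, Bckdha and Bckdk). They were taken by gene symbol from a deposited table of 47643 genes, and all 10 were in the table and passed the filter on low values in every comparison. RNA was sequenced from 59 muscle samples of female NCI Ath/nude mice, 4 months old, an athymic strain that lacks mature T cells. Every mouse carried a human patient-derived melanoma xenograft, either one that causes muscle wasting (cachectic) or one that does not (non-cachectic), and no tumour-free group was analysed here. Each tumour type is 1 xenograft line, so a difference between the lines other than wasting cannot be told apart from cachexia. Diaphragms came from 4 groups: non-cachectic mock (n = 9), cachectic mock (n = 10), non-cachectic rFibcd1 (n = 10) and cachectic rFibcd1 (n = 10). rFibcd1 is recombinant Fibcd1, a protein secreted by muscle, given as 3 intraperitoneal injections every other day in the last week, and mock mice received albumin in saline by the same route. Tibialis anterior, a fast limb muscle, and soleus, a slow limb muscle, came from non-cachectic and cachectic mice with no rFibcd1 (n = 5 in each of these 4 groups).

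Muscle protein is a large store of amino acids, which are released during wasting. The heavy chain Slc3a2 carries the light chains Slc7a5 and Slc7a8 to the cell surface, where the pairs exchange glutamine for leucine and other large neutral amino acids. Slc38a2 and Slc1a5 bring in glutamine and other neutral amino acids with sodium, and Slc7a2 brings in arginine and lysine. Glul fixes ammonia onto glutamate to make glutamine, the main form in which muscle exports nitrogen. Bcat2 removes the amino group of leucine, isoleucine and valine in mitochondria, the branched-chain ketoacid dehydrogenase (with Bckdha as a subunit) then commits the carbon skeleton to oxidation, and Bckdk is the kinase that phosphorylates Bckdha and switches the enzyme off.

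Values are TPM, a transcript's share of its library scaled by gene length, which allows levels to be compared between genes but keeps no trace of sequencing depth, so the depth behind each value is unknown. Between 16436 and 19456 genes were above 0 per library. The share of TPM from mitochondrial genes was lower in each cachectic group, with medians of 38.7% against 47.3% in mock diaphragm, 40.6% against 47.7% in tibialis anterior and 30.6% against 41.0% in soleus. A change in this share moves the TPM of all other genes. Results for the 10 genes between tumours are therefore also given after median-ratio scaling, which centres the median gene. How much of the general shift between tumours came from this share was not tested. Libraries also split in 2 by the pseudogene Pcna-ps2, at or above 5.60 TPM (called high-state below) or at or under 0.428 TPM, a split the labels do not explain. High-state libraries made up 3 of 9 non-cachectic and 9 of 10 cachectic mock diaphragms, and all 5 cachectic and 0 of 5 non-cachectic libraries in each limb muscle, so state and tumour cannot be told apart in the limb muscles. Muscle markers were abundant in every library (Ckm 3522 to 15046 TPM) and of 5 markers of melanocytes Dct reached 2.31 TPM and the other 4 were at or under 0.278. Neutrophil markers (2 of 2 tested) were called higher with the cachectic melanoma in all 3 muscles as deposited (1 of 2 in diaphragm after scaling), endothelial markers in 3 of 4 cases in diaphragm and tibialis anterior (1 and 2 after scaling), and fibroblast markers were higher in 2 of 3 cases in tibialis anterior and lower in 2 of 3 in soleus. Summed adipocyte markers had medians of 727 against 256 TPM in mock diaphragm (1 of 3 called, 0 after scaling), and summed macrophage markers had medians of 92.8 against 52.6 TPM in mock diaphragm, 18.6 against 5.27 in tibialis anterior and 32.3 against 20.5 in soleus. Macrophage markers were called higher in 1 of 4, 3 of 3 and 1 of 4 cases, and in soleus their median log2 difference was -0.11. Their part in the results below was not tested. In whole muscle, fewer cells of a type and less RNA per cell cannot be told apart. Libraries are named by the number in the table, since the labels do not say which replicate a number stands for. p-values measure the spread between these libraries, which the labels call biological replicates.

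Cachectic and non-cachectic melanoma were compared first, in each muscle. Slc3a2 and Glul were higher with the cachectic melanoma in all 3 muscles, by 2.39-fold to 3.65-fold as deposited, and both were called after scaling too. Slc7a8 was higher in diaphragm and tibialis anterior, also after scaling, and Slc7a2 was higher in tibialis anterior as deposited (not called after scaling) and lower in soleus. Bckdha and Bckdk were lower in soleus, and after scaling in all 3 muscles.

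With limma on log2(TPM + 1) and Benjamini-Hochberg adjustment over all genes tested, 6 of the 10 genes were called at an adjusted p under 0.05 in mock diaphragm (33.5% of all genes were called), 7 (60.2%) in the tibialis anterior and 5 (25.1%) in the soleus. In mock diaphragm 5 were higher and 1 lower, where 30.9% and 2.67% of all genes were. In tibialis anterior 7 were higher and none lower, against 56.4% and 3.78% of all genes. Of these 7, Slc7a5 passed the filter on low values only through its cachectic group. With a mean of at least 5 TPM as the filter, 6 were called there (62.5% of all genes). In soleus 2 were higher and 3 lower, against 17.5% and 7.54%. The median log2 difference of the 10 was 0.47 in diaphragm, 0.81 in tibialis anterior and -0.13 in soleus, beside 0.20, 0.41 and 0.09 over all genes. After scaling, 5 were called in each muscle, with 3 higher and 2 lower in diaphragm and tibialis anterior and 2 higher and 3 lower in soleus, beside 16.5%, 40.0% and 28.6% of all genes. Of the genes called, 92.0% were higher in diaphragm before scaling and 43.6% after, 93.7% and 46.7% in tibialis anterior, and 70.0% and 58.2% in soleus. The 2 groups shared no value for 1 of the 10 genes in mock diaphragm (4.36% of all genes), 5 in tibialis anterior (51.7%) and 4 in soleus (20.0%). Slc7a5 was 1 of the 5 in tibialis anterior, where it could pass the filter only with its groups apart. Called higher in all 3 muscles were 2 of the 10, Slc3a2 and Glul (12.3% of the genes tested in all 3). After scaling the same 2 were, and 2 were called lower in all 3, Bckdha and Bckdk (3.65%).

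**Figure D1:**
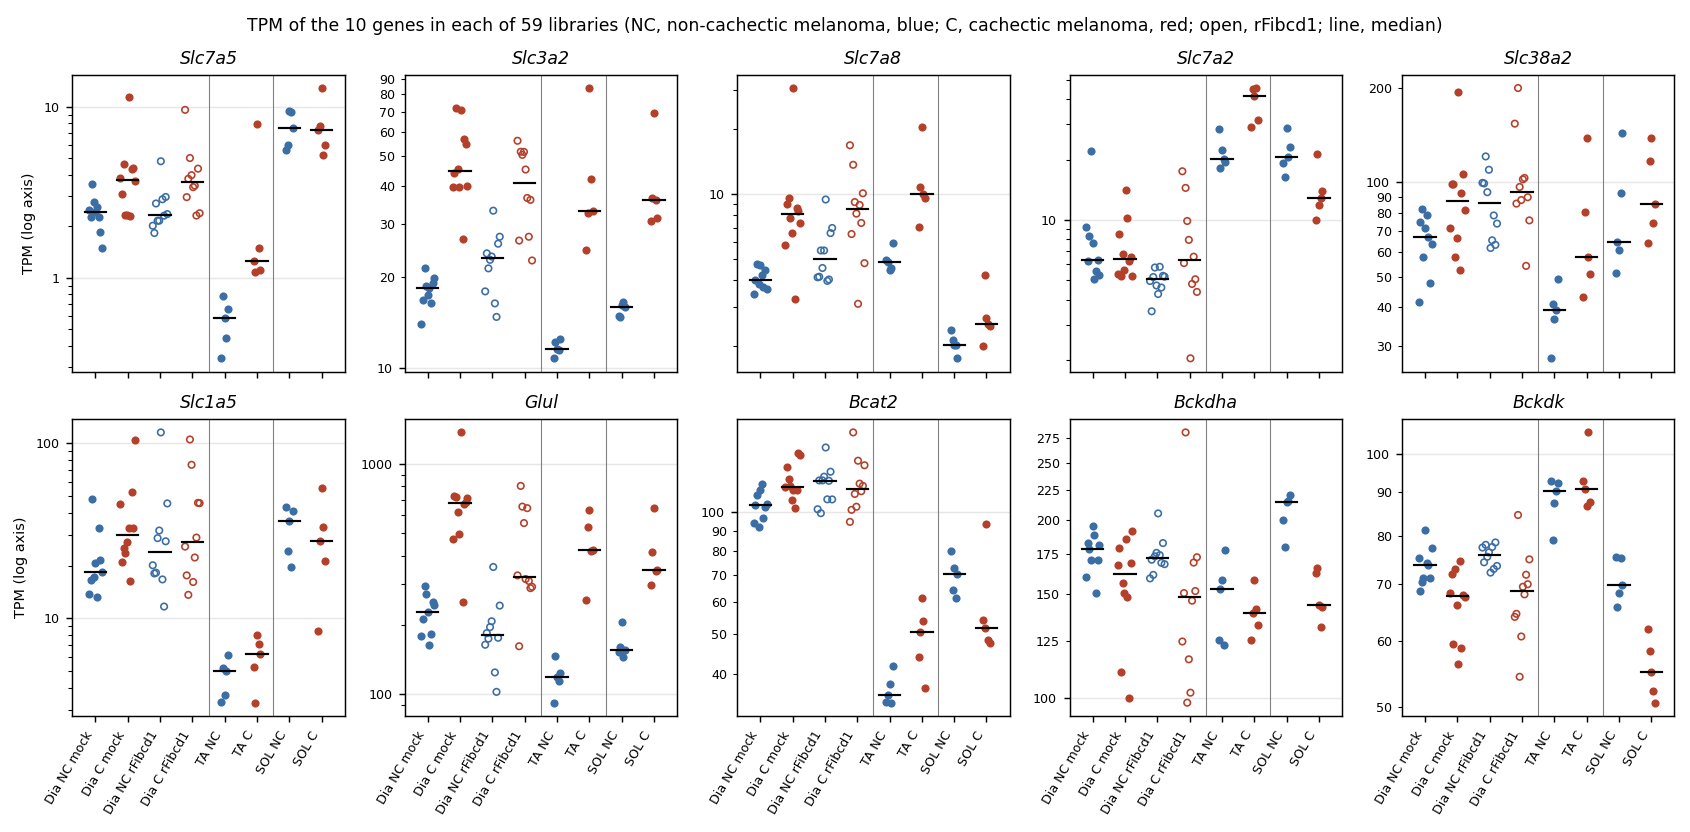
TPM (log axis, a scale of its own for each gene) of the 10 genes in each of 59 libraries by muscle, tumour and treatment (Dia, diaphragm; TA, tibialis anterior; SOL, soleus; NC, non-cachectic; C, cachectic), with the group median as a line. For Slc3a2 the cachectic libraries without rFibcd1 sit between 24.5 and 83.9 TPM and the non-cachectic ones between 10.8 and 21.4, while under rFibcd1 the ranges overlap, at 22.7 to 56.2 and 14.8 to 33.1.

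**Figure D2:**
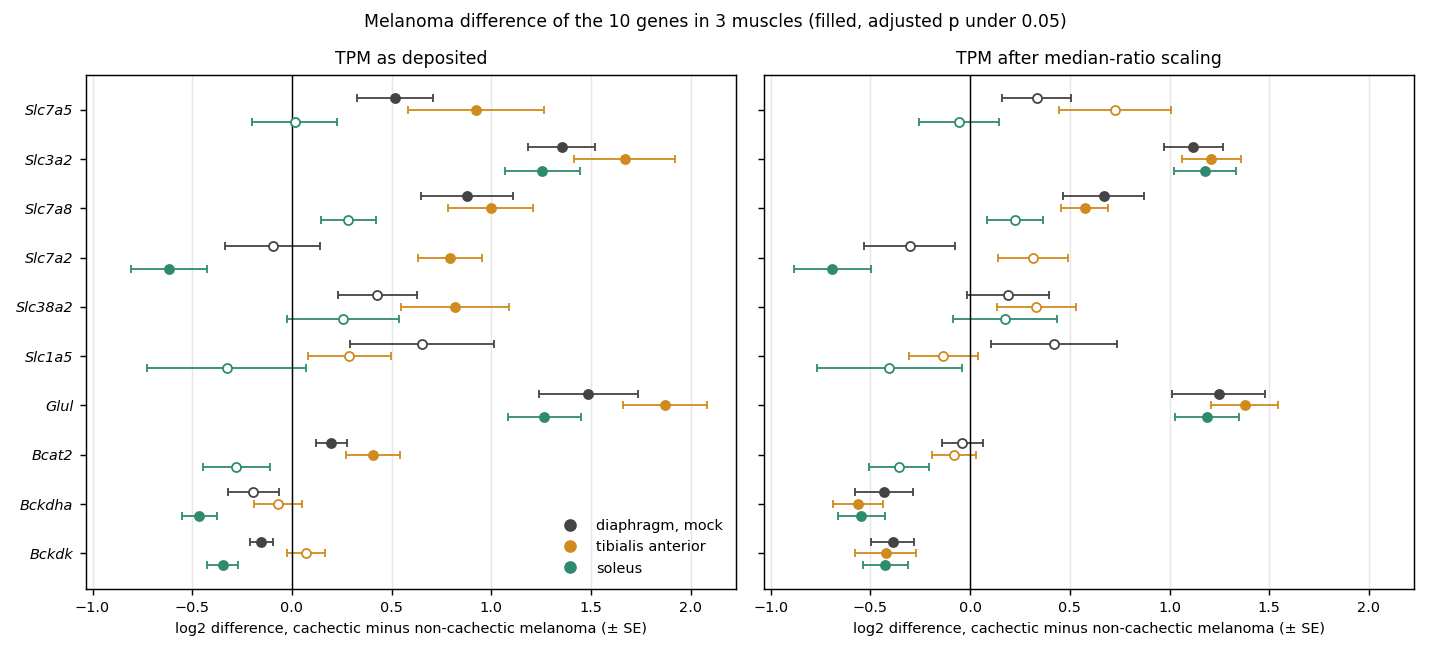
Log2 difference (cachectic minus non-cachectic, on log2(TPM + 1), bars ± SE) of each gene in 3 muscles, as deposited on the left and after median-ratio scaling on the right, filled where the adjusted p was under 0.05. Slc3a2 and Glul lie right of 0 in every muscle in both panels, and the points of Bckdha and Bckdk lie left of 0 in every muscle after scaling.

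Slc3a2 (heavy chain, chr19:8706882-8723369, minus strand, GENCODE M21 on GRCm38) and Glul (glutamine synthetase, chr1:153899944-153909723, plus strand) moved together with tumour type in all 3 muscles. Their 250 bases before the RefSeq start (GRCm38.p6) are shown because both genes were called in every muscle, at chr19:8713898-8714147 (minus strand, within the longer GENCODE gene) and chr1:153899679-153899928 (plus strand). Capitals in Glul mark the core bases ACANNNTGT bound by the glucocorticoid receptor, searched on both strands, at 25 to 17 bases before the start.
Slc3a2: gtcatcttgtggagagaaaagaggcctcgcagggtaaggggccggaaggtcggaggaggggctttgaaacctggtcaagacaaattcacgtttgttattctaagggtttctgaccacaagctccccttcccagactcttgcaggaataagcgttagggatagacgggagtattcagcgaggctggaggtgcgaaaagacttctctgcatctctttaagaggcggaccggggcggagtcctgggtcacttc
Glul: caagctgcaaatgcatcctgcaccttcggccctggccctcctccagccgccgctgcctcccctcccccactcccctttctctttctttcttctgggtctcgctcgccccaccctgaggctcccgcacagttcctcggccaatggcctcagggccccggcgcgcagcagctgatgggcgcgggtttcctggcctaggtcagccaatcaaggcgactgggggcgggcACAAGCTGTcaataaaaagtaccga
Of 32851 RefSeq windows of this kind, 5.84% held that core, and of the 7 genes with a window here (all but Slc7a5, Slc7a2 and Slc1a5) Glul alone did. The composite bases TGATGNAA, read by C/EBP-ATF pairs in amino acid shortage, were in 3.45% of all windows and in none of the 7. A match is a description of the letters, not of binding.

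In mock diaphragm, Slc3a2 was 13.9, 18.4 and 21.4 TPM (lowest, median and highest of 9) with the non-cachectic melanoma and 26.7, 44.7 and 72.0 TPM (of 10) with the cachectic one. The groups did not overlap, and the lowest cachectic library (number 22) was the one low-state library of its group. The means were 18.0 ± 2.17 and 49.1 ± 14.6 TPM (SD), a log2 difference of 1.35 ± 0.17 (SE, adjusted p = 1.49e-06), and 1.12 after scaling (adjusted p = 6.06e-06). Within high-state libraries alone, Slc3a2 was 18.4 to 19.8 TPM in 3 non-cachectic and 39.5 to 72.0 in 9 cachectic libraries, a log2 difference of 1.35 (adjusted p = 0.0110).

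In tibialis anterior, Slc3a2 was 10.8, 12.2, 11.5, 11.5 and 12.4 TPM in non-cachectic libraries 61 to 65, and 24.5, 32.6, 83.9, 42.0 and 32.9 TPM in cachectic libraries 6 to 10. Every cachectic library lay above every non-cachectic one, with number 8 far above the rest. The log2 value of cachectic minus non-cachectic was 1.67 ± 0.25 (adjusted p = 0.000766), 1.21 after scaling, and 1.40 without number 8. In soleus, Slc3a2 was 14.9, 14.8, 16.1, 16.5 and 15.9 TPM in libraries 61 to 65 against 30.7, 36.5, 69.2, 35.8 and 31.3 TPM in libraries 6 to 10. Again the groups did not overlap and number 8 was the highest. On the log2 scale the groups differed by 1.26 ± 0.19 (adjusted p = 0.00105), 1.18 after scaling and 1.05 without number 8.

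Glul was the most abundant of the 10 genes in every cachectic group. In mock diaphragm it was 163, 228 and 294 TPM (lowest, median, highest) with the non-cachectic and 252, 676 and 1373 TPM with the cachectic melanoma. Only library 22 of the cachectic group fell within the non-cachectic range. This came to a log2 difference of 1.49 ± 0.25 (adjusted p = 6.76e-05), 1.25 after scaling, and 1.67 within high-state libraries (adjusted p = 0.0144). In tibialis anterior, Glul was 91.8, 147, 119, 114 and 123 TPM in non-cachectic libraries 61 to 65 and 257, 532, 629, 417 and 424 TPM in cachectic libraries 6 to 10. The groups were apart, and the log2 difference was 1.87 ± 0.21 (adjusted p = 0.000136), 1.38 after scaling. In soleus, Glul was 152, 160.5, 207, 145 and 156 TPM against 299.0, 414, 641.5, 342 and 346 TPM in the same order. All cachectic libraries were above all non-cachectic ones, by a log2 difference of 1.27 ± 0.18 (adjusted p = 0.000918), 1.19 after scaling. Library number 8 was the highest for Glul in both limb muscles. An exon of Glul shares 116 bases with Teddm2 on the other strand, whose reads could not be told apart from those of Glul where counting ignored strand, and 93 with Mir8114 on the same strand, where counting by strand does not separate them.

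The call of Slc3a2 and of Glul held without any 1 library in each muscle. The ratio of Glul to Slc3a2 within a library had medians of 12.9 and 12.5 in non-cachectic and cachectic mock diaphragm, 9.93 and 10.5 in tibialis anterior and 10.2 and 9.75 in soleus. The ranges of that ratio overlapped between tumour types in each muscle.

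**Figure D3:**
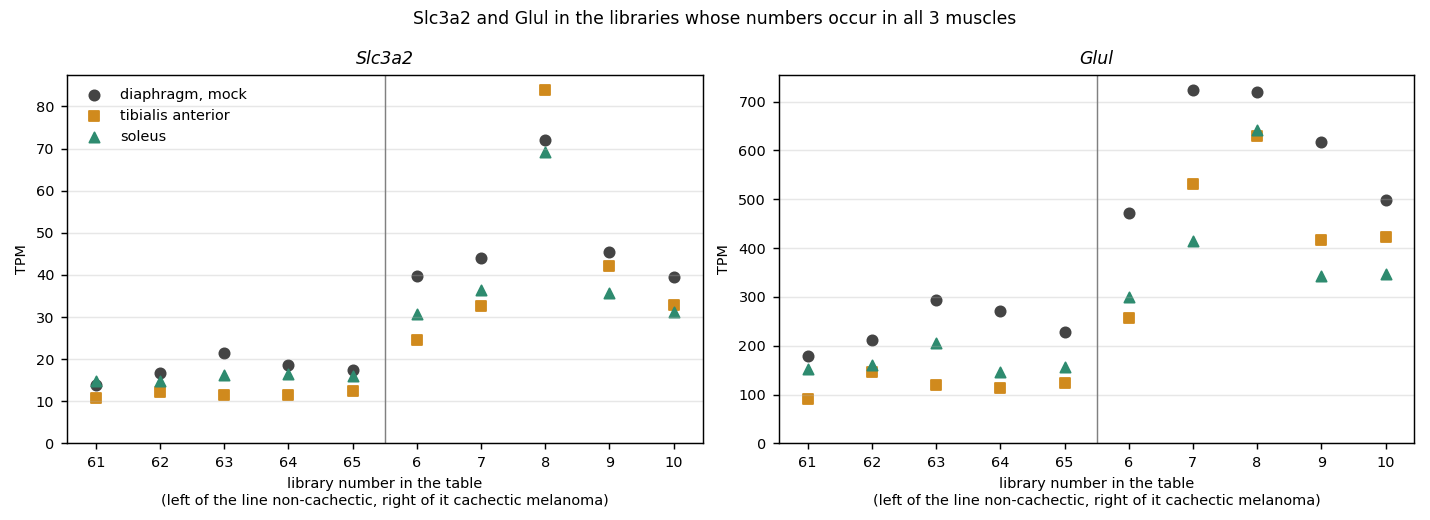
TPM of Slc3a2 and Glul (linear axes) in the libraries whose numbers occur in mock diaphragm, tibialis anterior and soleus, non-cachectic on the left of the line and cachectic on the right. For Slc3a2, number 8 is the highest in each muscle, at 72.0, 83.9 and 69.2 TPM.

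Both light chains that pair with Slc3a2 were called higher with the cachectic melanoma in diaphragm and tibialis anterior as deposited, and neither in soleus. In tibialis anterior, however, Slc7a5 passed the filter on low values only through its cachectic group. After scaling, Slc7a8 was still called in both muscles and Slc7a5 in neither. The melanoma difference of neither gene was called between tibialis anterior and soleus (adjusted p = 0.164 for Slc7a8 and 0.110 for Slc7a5), but with the library number as a block that of Slc7a5 was (0.91, adjusted p = 0.0220). Slc7a5 was also far lower in tibialis anterior than in soleus.

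Slc7a8 was 3.45, 4.02 and 4.76 TPM (lowest, median, highest) in non-cachectic and 3.26, 8.05 and 30.8 TPM in cachectic mock diaphragm. The groups overlapped through library 22 alone, and library 20 stood far above the next, at 9.59 TPM. The groups' log2 means differed by 0.88 ± 0.23 (adjusted p = 0.00422), 0.67 after scaling (adjusted p = 0.0210) and 0.68 without library 20, but with library state as a term it was 0.62 (adjusted p = 0.0710). In tibialis anterior, Slc7a8 was 4.94, 4.85, 4.48, 4.55 and 5.96 TPM in non-cachectic and 7.00, 10.7, 20.4, 9.96 and 9.58 TPM in cachectic libraries, with no overlap. The log2 difference was 1.00 ± 0.21 (adjusted p = 0.00425), 0.57 after scaling (adjusted p = 0.00411). In soleus, it was 2.37, 2.12, 2.01, 2.02 and 1.75 TPM against 1.99, 4.21, 2.68, 2.51 and 2.47 TPM, overlapping groups, with a log2 difference of 0.28 ± 0.14 (adjusted p = 0.154).

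Slc7a5 was 1.49, 2.44 and 3.51 TPM in non-cachectic and 2.30, 3.75 and 11.5 TPM in cachectic mock diaphragm, with wide overlap. The log2 value of cachectic minus non-cachectic was 0.52 ± 0.19 (adjusted p = 0.0334), 0.33 after scaling (adjusted p = 0.189), and without library 20 it was 0.36 (adjusted p = 0.0825), 1 of 7 libraries of the 39 without which the call was lost. In tibialis anterior, Slc7a5 was 0.338, 0.780, 0.582, 0.444 and 0.656 TPM in non-cachectic and 1.26, 1.08, 7.94, 1.5003 and 1.11 TPM in cachectic libraries. The groups did not overlap, yet library 8 alone held most of the mean. All non-cachectic values were under the 1 TPM of the filter and all cachectic ones over it. The gene thus passed the filter only through its cachectic group, so neither this separation nor the call below is support. On the log2 scale the groups differed by 0.92 ± 0.34 (adjusted p = 0.0352), 0.73 after scaling (adjusted p = 0.0595), and 0.52 without library 8 (adjusted p = 0.00132). Without any 1 of the 5 non-cachectic libraries the call was lost, with an adjusted p of up to 0.0702. In soleus, it was 5.56, 5.97, 9.46, 9.26 and 7.49 TPM against 7.30, 7.75, 12.9, 5.21 and 5.99 TPM. These groups overlapped and the log2 difference was 0.01 ± 0.21 (adjusted p = 0.970).

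Ratios within a library, which no scaling changes, set the partners side by side as a description. The median of Slc7a5 to Slc7a8 was 0.609 in non-cachectic and 0.488 in cachectic mock diaphragm, 0.110 and 0.151 in tibialis anterior and 4.29 and 2.43 in soleus. Soleus was the one muscle in which Slc7a5 exceeded Slc7a8 in every library. The median of Slc3a2 to Slc7a5 was 7.14 and 12.9 in mock diaphragm, 19.8 and 28.0 in tibialis anterior and 2.13 and 5.23 in soleus. In soleus this ratio ran from 1.71 to 2.68 in non-cachectic and from 4.20 to 6.88 in cachectic libraries, without overlap.

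**Figure D4:**
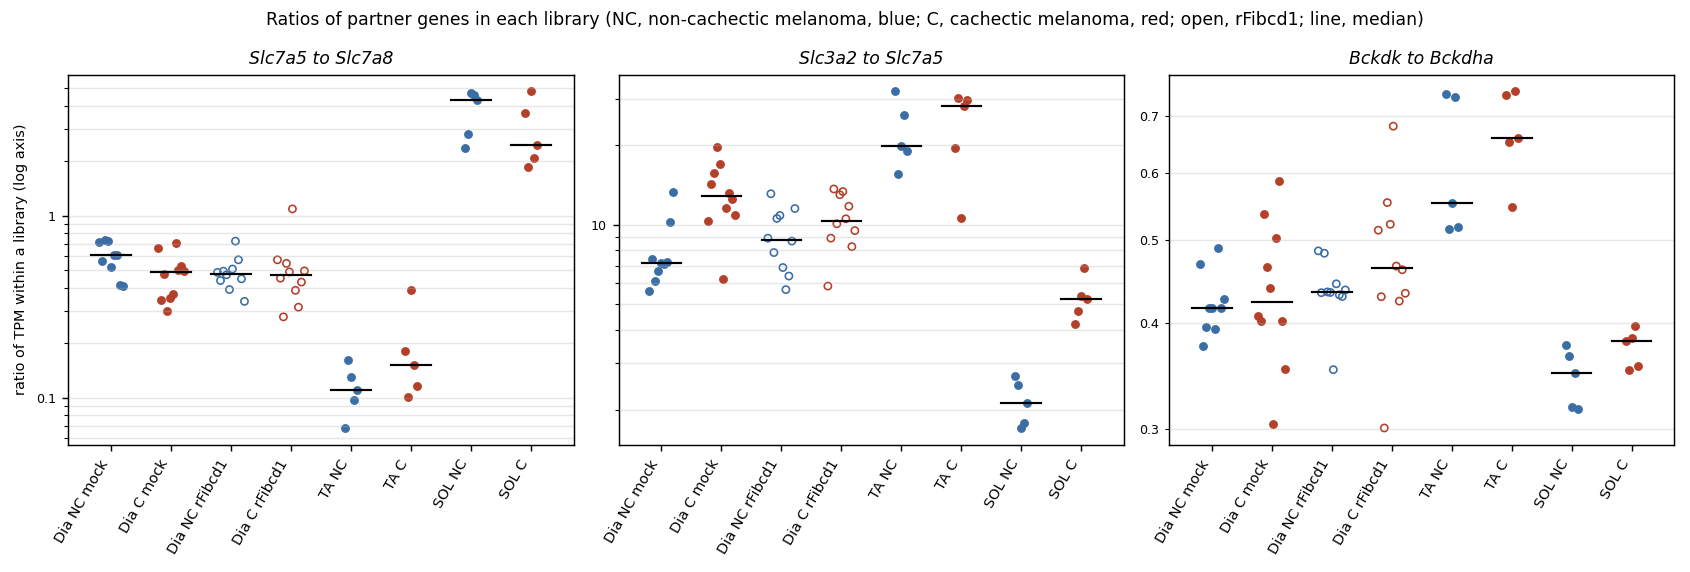
Ratio of TPM between partner genes within each library (log axes, each panel with its own range), with the group median as a line: Slc7a5 to Slc7a8, Slc3a2 to Slc7a5 and Bckdk to Bckdha. Slc7a5 to Slc7a8 has medians of 0.110 in non-cachectic tibialis anterior and 4.29 in soleus.

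Of the other transporters, Slc7a2 changed in opposite directions in the 2 limb muscles, Slc38a2 was higher in tibialis anterior as deposited, and Slc1a5 was called in none of the 3. Slc7a2 (cationic amino acid transporter) was 28.5, 18.2, 22.4, 20.1 and 19.5 TPM in non-cachectic tibialis anterior and 29.2, 45.1, 41.5, 45.6 and 31.5 TPM in cachectic libraries. The groups were apart by a narrow gap, set by libraries 61 and 6. This came to a log2 difference of 0.79 ± 0.16 (adjusted p = 0.00330), but 0.32 after scaling (adjusted p = 0.168). In soleus, Slc7a2 was 19.2, 16.3, 28.9, 20.7 and 23.2 TPM against 9.94, 21.4, 11.8, 12.8 and 14.0 TPM. Cachectic library 7 alone reached into the non-cachectic range, and its fast-fibre markers summed to 9453 TPM, where the median of its group was 347. Their part in the result was not tested. The groups' log2 means differed by -0.62 ± 0.19 (adjusted p = 0.0352) and -0.69 after scaling (adjusted p = 0.0230), and without any 1 of 8 of the 10 libraries (all but cachectic 7 and non-cachectic 62) the call was lost, with an adjusted p of up to 0.0856. In mock diaphragm, Slc7a2 was 5.04, 6.32 and 22.0 TPM (lowest, median, highest) against 5.23, 6.37 and 14.1 TPM, with a log2 difference of -0.10 ± 0.24 (adjusted p = 0.768). The highest of these, non-cachectic library 64, also held the most liver marker RNA (7024 TPM summed over Alb, Apoa1 and Ttr, median of its group 15.4). Exons of Slc7a2 share 635 bases with Gm26584 on the other strand.

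Slc38a2 was 27.5, 40.9, 36.6, 39.1 and 49.1 TPM in non-cachectic and 43.1, 80.5, 138, 57.8 and 51.1 TPM in cachectic tibialis anterior. Only cachectic library 6 fell within the non-cachectic range. The log2 difference was 0.82 ± 0.27 (adjusted p = 0.0237), 0.33 after scaling (adjusted p = 0.198), and the call was lost without non-cachectic library 61 (adjusted p = 0.0583). It was 41.6, 67.0 and 82.3 TPM in non-cachectic and 52.4, 87.2 and 193 TPM in cachectic mock diaphragm, with a log2 difference of 0.43 ± 0.20 (adjusted p = 0.0887). Without cachectic library 22 it passed the threshold there. In soleus, its groups overlapped widely (51.2 to 144 TPM against 64.2 to 139 TPM), with a log2 difference of 0.26 ± 0.28 (adjusted p = 0.542).

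Slc1a5 was 13.3, 18.3 and 48.0 TPM in non-cachectic and 16.3, 30.1 and 104 TPM in cachectic mock diaphragm, with a log2 difference of 0.65 ± 0.36 (adjusted p = 0.155). In soleus, it was 43.1, 24.2, 35.9, 19.7 and 41.1 TPM against 8.42, 27.6, 55.2, 33.1 and 21.4 TPM, and in tibialis anterior 3.31 to 6.13 against 3.29 to 8.05 TPM. Those groups overlapped, with log2 differences of -0.33 ± 0.40 (adjusted p = 0.587) and 0.29 ± 0.21 (adjusted p = 0.232). The library with the most Slc1a5 was also the one with the most adipocyte marker RNA (Adipoq, Plin1 and Cfd summed) in 6 of the 8 groups, and in 5 of 8 the least of both was in the same library. For summed macrophage markers the counts were 5 of 8 and 5 of 8. In cachectic soleus, library 8 held 4430 TPM of the adipocyte markers and 55.2 of Slc1a5, and library 6 held 138 and 8.42. In non-cachectic rFibcd1 diaphragm, library 56 held 3956 and 115 TPM, and library 58 held 136 and 11.7. Other members shared such libraries too. With adipocyte markers, the highest library was shared in 4 of 8 groups for Slc3a2, Slc7a8 and Bcat2 and in 3 for Glul, and the lowest in 4 for Slc3a2 and Slc7a8 and in 5 for Glul. With macrophage markers, the highest was shared in 5 of 8 for Slc7a8 and in 4 for Slc3a2 and Slc7a5. The part of adipocyte or macrophage RNA in the values of these genes was not tested.

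Transcripts of Bckdha and of its inhibiting kinase Bckdk were both lower in soleus, while Bcat2, the step before them, was called slightly higher in diaphragm and tibialis anterior as deposited. Scaling decided this group: after it, Bckdha and Bckdk were lower in each muscle and Bcat2 was called in none. Bckdha is the subunit that Bckdk phosphorylates.

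Bckdha was 200.2, 180.2, 215, 215.5 and 221 TPM in non-cachectic and 163, 166, 144, 132 and 142.5 TPM in cachectic soleus. Every cachectic library lay below every non-cachectic one. The log2 value of cachectic minus non-cachectic was -0.47 ± 0.09 (adjusted p = 0.00360), -0.55 after scaling. In tibialis anterior, Bckdha was 125, 153, 158, 123 and 178 TPM against 125, 139, 158, 142 and 133 TPM, overlapping groups, with a log2 difference of -0.07 ± 0.12 (adjusted p = 0.619), but -0.56 after scaling (adjusted p = 0.00590). In mock diaphragm, it was 151, 179 and 195 TPM (lowest, median, highest) against 100.05, 162 and 192 TPM. The low end of the cachectic group was set by libraries 8 and 32, and the log2 difference was -0.19 ± 0.13 (adjusted p = 0.234), or -0.43 after scaling (adjusted p = 0.0362). Of 1899 exon bases of Bckdha, 1171 lie opposite exons of B3gnt8, so its values are uncertain where counting ignored strand.

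Bckdk was 75.5, 65.9, 68.3, 75.2 and 69.9 TPM in non-cachectic and 61.9, 58.3, 55.1, 52.3 and 50.6 TPM in cachectic soleus, with no overlap. On the log2 scale the groups differed by -0.35 ± 0.08 (adjusted p = 0.00811), -0.43 after scaling (adjusted p = 0.0168). In mock diaphragm, it was 68.7, 73.7 and 81.2 TPM against 56.4, 67.8 and 74.6 TPM. The shift was small beside the overlap, with a log2 difference of -0.15 ± 0.06 (adjusted p = 0.0407), -0.39 after scaling (adjusted p = 0.0107), and the call as deposited was lost without any 1 of 8 of the 39 libraries. In tibialis anterior, Bckdk was 93.0, 78.9, 87.4, 90.5 and 92.2 TPM against 93.0, 90.8, 86.7, 106 and 87.6 TPM, with a log2 difference of 0.07 ± 0.10 (adjusted p = 0.531), and -0.42 after scaling (adjusted p = 0.0482). There the direction turned with the scaling. The ratio of Bckdk to Bckdha had medians of 0.416 and 0.423 in mock diaphragm, 0.553 and 0.660 in tibialis anterior and 0.349 and 0.381 in soleus, with overlapping ranges in each muscle.

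Bcat2 was 34.1, 35.5, 37.9, 34.0 and 41.8 TPM in non-cachectic and 44.1, 50.6, 61.4, 54.0 and 36.9 TPM in cachectic tibialis anterior. Only cachectic library 10 fell within the other group. This came to a log2 difference of 0.40 ± 0.14 (adjusted p = 0.0244), but -0.08 after scaling (adjusted p = 0.586). In mock diaphragm, Bcat2 was 92.1, 104 and 117 TPM against 102, 116 and 139.8 TPM, with a log2 difference of 0.20 ± 0.08 (adjusted p = 0.0437) and -0.04 after scaling (adjusted p = 0.831). The call as deposited was lost without any 1 of 10 of the 39 libraries. In soleus, it was 80.4, 64.3, 73.0, 61.3 and 70.5 TPM against 54.2, 52.0, 93.4, 48.4 and 47.7 TPM. There 4 of the 5 cachectic libraries lay below all non-cachectic ones and library 8 above them. The groups' log2 means differed by -0.28 ± 0.17 (adjusted p = 0.244), and -0.45 without library 8 (adjusted p = 0.00484). Exons of Bcat2 share 622 bases with 0610005C13Rik on the other strand.

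The rest of the branched-chain pathway was read from a list of 23 genes, of which 22 were tested in each muscle. As deposited, 2 were higher and 1 lower in mock diaphragm (30.9% and 2.67% of all genes), 7 and 1 in tibialis anterior (56.4% and 3.78%) and 1 and 2 in soleus (17.5% and 7.54%). The median log2 differences were 0.02, 0.14 and -0.14, beside 0.20, 0.41 and 0.09 over all genes. After scaling, the counts were 0 higher and 10 lower (16.5% of all genes called in either direction), 2 and 13 (40.0%), and 1 and 3 (28.6%). Hsd17b10, a dehydrogenase of isoleucine breakdown, was called higher in all 3 muscles as deposited, with log2 differences of 0.42 ± 0.09, 0.54 ± 0.16 and 0.41 ± 0.11 in the order diaphragm, tibialis anterior, soleus. After scaling these were 0.18, 0.05 and 0.33, and soleus alone was called. Oxct1, which starts ketone body use, was lower in all 3, at 436 against 542 TPM in diaphragm, 118 against 195 in tibialis anterior and 266 against 444 in soleus. Its log2 differences were -0.33 ± 0.13, -0.74 ± 0.16 and -0.80 ± 0.20 (adjusted p = 0.0408, 0.00428 and 0.0129), and it was called after scaling too. Aldh6a1, of valine breakdown, was higher in tibialis anterior, at 133 against 77.7 TPM (log2 difference 0.75 ± 0.14, adjusted p = 0.00246, and 0.26 after scaling, adjusted p = 0.0400).

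**Figure D5:**
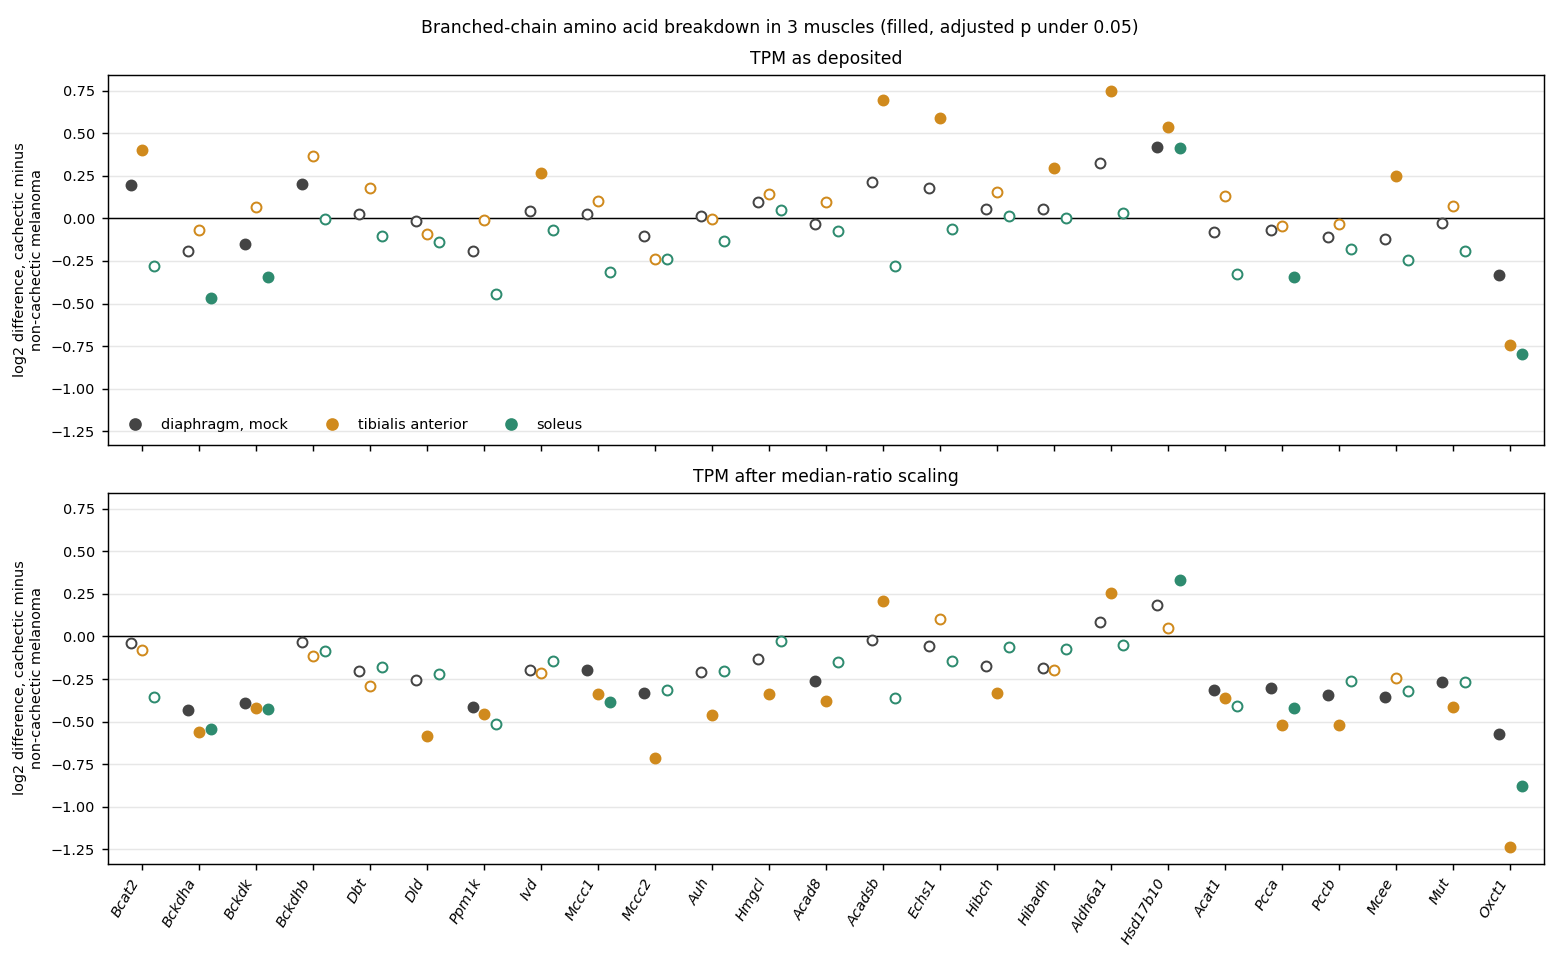
Log2 difference (cachectic minus non-cachectic) of Bcat2, Bckdha, Bckdk and the 22 tested genes of the branched-chain list in 3 muscles, as deposited above and after median-ratio scaling below, filled where the adjusted p was under 0.05. Oxct1 is below 0 and filled for every muscle in both panels, and most other points move down with scaling.

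Of 23 other amino acid transporter genes, 6 were higher and 1 lower among 22 tested in mock diaphragm, 10 and 3 among 17 in tibialis anterior and 2 and 3 among 22 in soleus. Of all genes, 30.9%, 56.4% and 17.5% were higher and 2.67%, 3.78% and 7.54% lower, and the list's median log2 differences of 0.20, 0.57 and 0.07 stood beside 0.20, 0.41 and 0.09. After scaling the counts were 3 and 3, 3 and 4, and 2 and 4 (16.5%, 40.0% and 28.6% of all genes called in either direction), and no gene was called in the same direction in all 3 muscles as deposited. Slc43a1, a carrier of large neutral amino acids, was higher in diaphragm (8.09 against 4.09 TPM, log2 difference 0.77 ± 0.21, adjusted p = 0.00537) and tibialis anterior (8.11 against 2.56 TPM, 1.30 ± 0.20, adjusted p = 0.000743), and was 4.24 against 4.06 TPM in soleus. After scaling it was 0.57 and 0.94 in the first 2, both called. Slc38a3, a glutamine carrier, was lower in diaphragm (44.5 against 65.7 TPM, log2 difference -0.51 ± 0.18, adjusted p = 0.0284) and tibialis anterior (26.2 against 39.2 TPM, -0.63 ± 0.23, adjusted p = 0.0358), and was called in both after scaling. Slc25a22, the mitochondrial glutamate carrier, was lower in soleus, at 14.5 against 39.1 TPM (log2 difference -1.37 ± 0.20, adjusted p = 0.000948), and in tibialis anterior (-0.53 ± 0.16, adjusted p = 0.0165). Slc38a10 was lower in tibialis anterior (log2 difference -0.92 ± 0.19, adjusted p = 0.00318). After scaling both were called lower in all 3 muscles, at -0.54 in diaphragm and -1.45 in soleus for Slc25a22, and -0.31, -1.41 and -0.42 in diaphragm, tibialis anterior and soleus for Slc38a10. Slc43a2, another carrier of large neutral amino acids, was higher in soleus (0.40 ± 0.08, adjusted p = 0.00542) and tibialis anterior (0.58 ± 0.20, adjusted p = 0.0264), and after scaling only in soleus (0.32).

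Other amino acid enzymes (28 listed) had 3 higher and 2 lower among 24 tested in diaphragm, 11 and 2 among 21 in tibialis anterior and 2 and 3 among 22 in soleus. Median log2 differences were 0.15, 0.51 and 0.02, and the shares of all genes were again 30.9%, 56.4% and 17.5% higher and 2.67%, 3.78% and 7.54% lower. After scaling the counts were 1 and 4, 4 and 5, and 1 and 3, against 16.5%, 40.0% and 28.6% of all genes called. Prodh, which starts proline breakdown, was higher in all 3 muscles, at 21.8 against 9.86 TPM, 12.7 against 3.11 and 17.7 against 9.03, with log2 differences of 1.08 ± 0.20, 1.73 ± 0.19 and 0.82 ± 0.23. It was called after scaling in each. Gpt, alanine aminotransferase, was lower in tibialis anterior and soleus (log2 differences -0.35 ± 0.12 and -0.54 ± 0.14, adjusted p = 0.0319 and 0.0175). Ampd1, which deaminates AMP in muscle, was lower in diaphragm (-0.31 ± 0.12, adjusted p = 0.0365). These calls of Gpt and Ampd1 held after scaling.

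Among 22 genes of the amino acid response, 7 were higher and none lower in diaphragm, 11 and 1 of 20 tested in tibialis anterior, and 4 and 2 in soleus, and after scaling 3 and 1, 5 and 1, and 4 and 3. The counts higher as deposited lie near the shares of all genes (30.9%, 56.4% and 17.5%, with 2.67%, 3.78% and 7.54% lower), the counts after scaling stand against 16.5%, 40.0% and 28.6% of all genes called, and the list's medians were 0.23, 0.49 and 0.03. Eif4ebp1, a brake on translation, was higher in all 3, at 199 against 84.2, 261 against 31.0 and 188 against 88.6 TPM, with log2 differences of 1.09 ± 0.30, 2.62 ± 0.41 and 0.95 ± 0.26. After scaling its call was lost in diaphragm (0.85, adjusted p = 0.0668). Gars, glycyl-tRNA synthetase, and Cebpb, a transcription factor, were also higher in all 3 as deposited. After scaling, Gars was called only in soleus (0.15 in diaphragm, adjusted p = 0.298, and 0.18 in tibialis anterior, adjusted p = 0.294), and Cebpb was not called in tibialis anterior (0.39, adjusted p = 0.151). The stress factors Ddit3 in tibialis anterior (log2 difference -0.63 ± 0.16) and Nupr1 in soleus (-1.02 ± 0.13) were lower, so members of this list moved both ways.

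Genes that respond to glucocorticoids (15 listed, Glul not among them) were higher in 11 cases and lower in none in diaphragm, in 11 and 1 in tibialis anterior and in 8 and none in soleus, against 30.9% and 2.67%, 56.4% and 3.78%, and 17.5% and 7.54% of all genes. After scaling these were 7 and 1, 9 and 2, and 8 and 1, against 16.5%, 40.0% and 28.6% of all genes called in either direction. The median log2 difference of the list was 0.87, 1.17 and 0.55, beside 0.20, 0.41 and 0.09 over all genes. The list was chosen with earlier results of these data known. It holds Ddit4, Klf15 and Zbtb16, which the study reports as raised by the cachectic melanoma in diaphragm. The counts of this list are therefore a description and not independent support. Called higher in all 3 as deposited were 8 (12.3% of all genes tested in all 3), Klf15, Fkbp5, Zbtb16, Ddit4, Sgk1, Errfi1, Mt2 and Cebpd. After scaling 5 of these were called in all 3 (3.51% of all genes). Klf15 lost its call in diaphragm, Errfi1 in diaphragm and tibialis anterior (adjusted p = 0.0917 and 0.147) and Sgk1 in soleus (adjusted p = 0.0945). Mt2, a metallothionein, had log2 differences of 4.22, 7.52 and 4.76. The other 7 fall outside the rule for named genes and were named after their values were seen. Klf15, a factor known to act on Bcat2 and amino acid breakdown, was 78.9 against 39.9 TPM in diaphragm, 55.6 against 23.2 in tibialis anterior and 57.0 against 38.2 in soleus. Its log2 differences were 0.76 ± 0.24, 1.19 ± 0.18 and 0.55 ± 0.13 (adjusted p = 0.0155, 0.000743 and 0.00909), and after scaling diaphragm was no longer called (0.53, adjusted p = 0.151). Fkbp5, a chaperone of the glucocorticoid receptor, had log2 differences of 2.74 ± 0.38, 3.13 ± 0.39 and 1.78 ± 0.37. Dusp1, a phosphatase of the same list, was lower in tibialis anterior (-0.85 ± 0.34, adjusted p = 0.0464).

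rFibcd1 was compared with mock in the diaphragm to ask whether it changes these genes. None of the 10 was called, with either tumour or as a difference between tumours. In cachectic mice the mean of Glul was 435 TPM with rFibcd1 and 672 TPM with mock, a difference that did not pass the adjusted threshold.

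In cachectic diaphragm 0 of 10 genes were called (0.0447% of all genes, 6 in number), with 1 at an unadjusted p under 0.05. That gene was Glul, at 161, 322 and 804 TPM with rFibcd1 (lowest, median, highest) against 252, 676 and 1373 TPM with mock. The ranges overlapped widely, with means of 435 ± 210.5 and 672 ± 288 TPM and a log2 difference of -0.67 ± 0.24 (unadjusted p = 0.00868, adjusted p = 0.323), and -0.69 after scaling (adjusted p = 0.156). Within high-state libraries the log2 difference was -0.86 (adjusted p = 0.0440), where 5.57% of all genes were called. Slc3a2 was 22.7, 40.8 and 56.2 TPM against 26.7, 44.7 and 72.0 TPM (log2 difference -0.28 ± 0.16, adjusted p = 0.549). The other 8 had adjusted p-values of 0.746 or higher. The Dunn test called none of the 10 (0 of all genes). The study's thresholds (an unadjusted p under 0.05 and a 1.5-fold change) called 1, Glul (1.54% of all genes).

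In non-cachectic diaphragm 0 of 10 were called (0.417% of all genes, 56 in number), with 3 at an unadjusted p under 0.05. Slc7a2 was 3.49, 5.06 and 5.83 TPM with rFibcd1 against 5.04, 6.32 and 22.0 TPM with mock (log2 difference -0.54 ± 0.24, adjusted p = 0.270). Its highest mock library was number 64, which held the most liver marker RNA. A fit of these 2 groups alone gave Slc7a2 an adjusted p of 0.0467, where 19.6% of all genes were called. Slc38a2 was 61.8, 85.7 and 121 TPM against 41.6, 67.0 and 82.3 TPM (0.40 ± 0.20, adjusted p = 0.286), and Bcat2 was 99.4, 119 and 144 TPM against 92.1, 104 and 117 TPM (0.16 ± 0.08, adjusted p = 0.280). The median log2 difference over all genes in this comparison was 0.15, and -0.01 after scaling. A clock-gene index (mean log2 level of Arntl, Npas2 and Clock minus that of Dbp, Per2, Per3 and Ciart) was 0.597 ± 1.21 with rFibcd1 against -2.94 ± 1.03 with mock in these mice, and -1.32 ± 1.42 against -2.22 ± 1.24 in cachectic mice. With the index as a term 0 of 10 were called with either tumour, where 0 of all genes were. Glul in non-cachectic mice went from -0.27 to 0.25.

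The rFibcd1 difference in cachectic minus that in non-cachectic mice was called for 0 of 10 genes (0.0223% of all genes, 3 in number), with 1 at an unadjusted p under 0.05. That was Slc3a2, with a log2 difference of -0.57 ± 0.23 (unadjusted p = 0.0181, adjusted p = 0.548). Between tumours under rFibcd1, 2 of 10 were called (9.11% of all genes). Slc3a2 was 14.8, 23.1 and 33.1 TPM in non-cachectic and 22.7, 40.8 and 56.2 TPM in cachectic mice (log2 difference 0.78 ± 0.16, adjusted p = 0.00307). Glul was 102, 179.9 and 357 TPM against 161, 322 and 804 TPM (1.09 ± 0.24, adjusted p = 0.00452). Within high-state libraries neither was called, at 0.55 (adjusted p = 0.303) and 0.77 (adjusted p = 0.307), where 0 of all genes were called. Without cachectic library 3 the number called was 4, with Bckdha and Bckdk added. That library held the most Bckdha of any sample, 282 TPM, and 1246 TPM of liver markers. Its fast-fibre markers summed to 12872 TPM, where the median of its group was 5708. The part of either marker set was not tested. None of the 5 gene lists above had a gene called between rFibcd1 and mock with either tumour.

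Levels of the 10 genes in non-cachectic muscle were compared between muscles. Slc7a5 and Slc1a5 were lowest in tibialis anterior, Slc7a2 was lowest in diaphragm, and Bcat2 was highest in diaphragm. Of the 10, 7 were called between tibialis anterior and soleus (69.5% of all genes), 9 between diaphragm and tibialis anterior (72.5%) and 4 between diaphragm and soleus (38.8%). Scaling moved the medians of all genes from -0.47 to -0.02 and from 0.44 to -0.01 in the first 2 of these, and the higher share of calls from 8.10% to 53.1% and from 88.3% to 48.7%. The counts after scaling were 5, 7 and 5 (53.6%, 70.9% and 47.1% of all genes). Scaling ended the calls of Slc38a2 and Bckdha between tibialis anterior and soleus and of Slc3a2, Slc38a2 and Glul between diaphragm and tibialis anterior, and added Slc7a8 in the latter and Glul between diaphragm and soleus (0.49, adjusted p = 0.0462). With the library number as a block they were 9, 9 and 5 (76.1%, 76.9% and 49.9% of all genes), with Slc3a2 (-0.39, adjusted p = 0.0229) and Glul (-0.46, adjusted p = 0.0325) added between tibialis anterior and soleus and Glul (0.47, adjusted p = 0.0330) between diaphragm and soleus. The differences of Slc3a2 and Glul between tibialis anterior and soleus turned sign with scaling. As deposited and without the block, the members' counts lie near the share of all genes called and show nothing particular to them.

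Slc7a5 had means of 0.560 ± 0.174 TPM in tibialis anterior (n = 5), 2.41 ± 0.569 in diaphragm (n = 9) and 7.55 ± 1.80 in soleus (n = 5), and no 2 of these groups overlapped. Tibialis anterior minus soleus was -2.43 ± 0.30 on the log2 scale (adjusted p = 1.29e-08), -2.19 after scaling. Slc1a5 had means of 4.65 ± 1.17, 22.4 ± 11.2 and 32.8 ± 10.4 TPM in the same order, with tibialis anterior minus soleus at -2.55 ± 0.38 (adjusted p = 6.86e-07), -2.01 after scaling. Adipocyte markers had medians of 32.3, 256 and 600.1 TPM in these groups. Slc7a2 had overlapping values in the limb muscles (21.7 ± 4.09 and 21.7 ± 4.76 TPM, log2 difference 0.01, and 0.62 after scaling with an adjusted p of 0.0577) and lower in diaphragm (8.41 ± 5.30 TPM), by a log2 difference of -1.39 ± 0.23 from tibialis anterior and -1.38 ± 0.23 from soleus, -1.95 and -1.33 after scaling. Bcat2 was 36.6 ± 3.26 TPM in tibialis anterior, 69.9 ± 7.48 in soleus and 104 ± 8.58 in diaphragm, with no overlap. Each of its 3 differences was called before and after scaling.

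Slc7a8 was higher in tibialis anterior than in soleus, at 4.96 ± 0.593 against 2.05 ± 0.224 TPM (log2 difference 0.96 ± 0.27, adjusted p = 0.00208). It was 4.09 ± 0.474 TPM in diaphragm, which overlapped tibialis anterior (diaphragm minus tibialis anterior -0.23, adjusted p = 0.391, and -0.73 after scaling, adjusted p = 0.00300). Bckdk was 88.4 ± 5.71 TPM in tibialis anterior, 71.0 ± 4.26 in soleus and 73.7 ± 3.88 in diaphragm. Diaphragm and soleus did not differ beyond their spread (0.05 ± 0.07, adjusted p = 0.529). Bckdha was 147 ± 23.4, 206 ± 16.5 and 176 ± 13.9 TPM. Its tibialis anterior minus soleus difference of -0.49 was 0.14 after scaling and no longer called, and diaphragm minus tibialis anterior turned from 0.26 to -0.31, called both times. Glul was 119 ± 19.8, 164 ± 24.4 and 225 ± 44.7 TPM, with diaphragm above tibialis anterior as deposited (0.90 ± 0.23, adjusted p = 0.000813) and not after scaling (0.33, adjusted p = 0.146).

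The melanoma difference itself was compared between muscles in a fit of the 39 libraries without rFibcd1. Between tibialis anterior and soleus 3 of 10 genes were called (20.4% of all genes), all more positive in tibialis anterior: Slc7a2 (1.41 ± 0.37, adjusted p = 0.00828), Bcat2 (0.68 ± 0.18, adjusted p = 0.00980) and Bckdk (0.42 ± 0.11, adjusted p = 0.00714). For Bckdk this set 0.07 in tibialis anterior, not called, against -0.35 in soleus, called. After scaling none was (11.6% of all genes, Slc7a2 1.01, adjusted p = 0.0919, Bcat2 0.28 and Bckdk 0.0022), and the median over all genes moved from 0.30 to 0.00323 and the higher share of calls from 93.8% to 32.9%. Between diaphragm and tibialis anterior 0 of 10 were called (5.04% of all genes), and between diaphragm and soleus 0 of 10 (2.52%), with 2 and 3 of 10 at an unadjusted p under 0.05, and after scaling 0 of 10 in both (5.06% and 3.87% of all genes). Slc3a2 and Glul did not pass in any pair, with differences of 0.41 ± 0.32 and 0.60 ± 0.37 between tibialis anterior and soleus. The same library numbers occur in all 3 muscles. With the number as a block, 5 of 10 were called between tibialis anterior and soleus (41.2% of all genes, Slc7a5 and Bckdha added), 1 between diaphragm and tibialis anterior (17.2% of all genes), which was Slc7a2 (-1.07, adjusted p = 0.00786), and 1 between diaphragm and soleus (7.36% of all genes), which was Bcat2 (0.48, adjusted p = 0.0209).

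Across the 8 groups, the highest group mean was 14.0 times the lowest for Slc7a5 (cachectic soleus against non-cachectic tibialis anterior), 8.51 for Slc1a5, 7.83 for Slc7a2, 5.64 for Glul, 5.62 for Slc7a8, 4.20 for Slc3a2 and 1.48 for Bckdha. For Slc3a2 the order of group means followed tumour type, with the 4 cachectic groups above the 4 non-cachectic ones, and for Glul it did as well. For Slc7a5, Slc7a2 and Bcat2 it followed muscle more than tumour: both soleus groups led for Slc7a5, all 4 limb groups for Slc7a2 and all 4 diaphragm groups for Bcat2. Over the 8 group means of log2(TPM + 1), and among 4224 genes, those most like Slc7a5 were Nob1 (r = 0.994), Ppp2ca (0.993) and Aida (0.988). Those most like Slc1a5 were Akap7 (0.994), Lipe (0.993), the hormone-sensitive lipase of fat cells, and Pygb (0.991), and those most like Slc7a2 were Dusp14 (0.955), Satb1 (0.948) and Mettl11b (0.945). These are descriptions over 8 points that share muscles and tumours.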

How the data were processed

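Female nude mice bearing human melanoma xenografts gave 59 muscle RNA libraries in 8 groups. TPM values (each transcript's length-scaled share of its library) were deposited by the authors, who trimmed reads and aligned them to GRCm38 (mm10) with CLC Genomics Workbench. The annotation is not given in the sources used here. Library kit and instrument differ between the labels and the study's methods, so whether counting used strand was not resolved. The depth is unknown, and 0 columns of other samples were left out. Groups came from the labels, and column numbers could not be tied to labelled replicates.

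Values were tested as log2(TPM + 1) with limma 3.58.1 in R 4.3.3 (empirical Bayes with trend), one fit for the 4 diaphragm groups, one for each limb muscle and one across muscles. Fold changes on this scale understate those of low genes. Genes at 1 TPM or more in as many libraries as the smallest group were kept, and p-values were adjusted by Benjamini-Hochberg over all genes kept. The script was tested on simulated data. Figures used Python 3.11.15 and matplotlib 3.10.9. Alternatives were median-ratio scaling, a pseudocount of 0.1, no filter, a mean of at least 5 TPM and Dunn tests. Others were the study's thresholds for rFibcd1-treated diaphragm (unadjusted p under 0.05 with 1.5-fold for rFibcd1 or a log2 change over 1). For limb muscles the study set a stricter p, not applied here, and its heatmap of treated diaphragm drew on fewer cachectic samples than were tested here. The rest were library state or a clock-gene index as a term, high-state libraries alone, and leaving out libraries. Library state was split at 1 TPM of Pcna-ps2. Genes, lists and the state were chosen with earlier results of these data known. Of each list, the genes named were the called ones with the highest and lowest difference at a mean of at least 5 TPM, and those called alike in all 3 muscles where 5 or fewer. Genes named outside this rule are marked as such.

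Library numbers shared between muscles were checked for pairing. The correlation of deviations from group means was 0.13 to 0.53 between diaphragm and tibialis anterior (10 of 10 over 0.1), 0.18 to 0.53 between tibialis anterior and soleus (10 of 10) and -0.0076 to 0.54 between diaphragm and soleus (8 of 10). The labels do not say that a number marks 1 animal.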

Additional observations from a re-analysis of the deposited data

Results flagged for a closer look

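Of 80 sets of values (10 genes in 8 groups), 16 had a library far from the others of its group by Dixon's test. Chance gives about 1 in 20 only for independent, normally distributed sets. These sets hold unlogged TPM and share libraries, and each flag was a highest value, so the 16 cannot be read against chance. In cachectic mock diaphragm, library 20 stood highest for Slc7a5 (11.5 TPM, next 4.60), Slc7a8 (30.8, next 9.59), Slc38a2 (193, next 106) and Glul (1373, next 724), and library 35 for Slc1a5 (104, next 52.7). In non-cachectic mock diaphragm, library 64 stood highest for Slc7a2 (22.0 TPM, next 9.25). In non-cachectic rFibcd1 diaphragm, library 56 stood highest for Slc7a5 (4.80 TPM, next 2.97), Slc1a5 (115, next 45.3) and Bckdha (205, next 183). In cachectic rFibcd1 diaphragm, library 1 stood highest for Slc7a5 (9.59 TPM, next 5.01) and library 3 for Bckdha (282, next 173). In the limb muscles, cachectic library 8 stood highest for Slc7a5 (7.94 TPM, next 1.5003) and Slc7a8 (20.4, next 10.7) in tibialis anterior and for Slc3a2 (69.2, next 36.5) and Bcat2 (93.4, next 54.2) in soleus. Non-cachectic soleus library 63 stood highest for Glul (207 TPM, next 160.5).

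The melanoma difference was more positive in tibialis anterior than in soleus, by the test of that difference in limma, for Slc7a2 (1.41 on the log2 scale), Bcat2 (0.68) and Bckdk (0.42, from 0.07 in tibialis anterior and -0.35 in soleus), and for none of them after median-ratio scaling.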

How the results depend on the processing

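Slc3a2 and Glul kept their direction and their call between tumours in mock diaphragm, tibialis anterior and soleus under scaling, without any 1 library and without the 3 libraries numbered 8. The cause of the changes below was not tested. TPM keeps no depth, so counting error could not be set beside any value.

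Of the 10 genes, the number called in mock diaphragm was 6 (33.5% of all genes), and 2 with library state as a term (15.3%), 3 with the clock index (28.9%), 2 in high-state libraries (5.69%), 2 by the study's thresholds (2.28%) and 3 without the libraries numbered 8 (27.3%). Between tumours under rFibcd1 it was 2 (9.11%), and 1 with the clock index (3.69%), 0 in high-state libraries (0 of all genes), 0 by the Dunn test (0 of all genes) and 1 by the study's thresholds (0.864%). For rFibcd1 in cachectic mice it was 0 (0.0447%), and 1 (Glul) in high-state libraries (5.57%) and 1 (Glul) by the study's thresholds (1.54%), and in non-cachectic mice 0 (0.417%), and 1 (Slc7a2) in a fit of those 2 groups (19.6%). By the thresholds the study set for the diaphragm it was 2 in tibialis anterior (7.80%) and 2 in soleus (3.59%), against 7 and 5. For the limb muscles the study set a stricter p, which was not applied here. Without the libraries numbered 8, diaphragm minus soleus had 1 (Bcat2, 4.26%), against 0.

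Without each library in turn, the number called ran from 3 (without cachectic library 8 or non-cachectic library 70) to 7 (without library 22) in mock diaphragm, 2 to 4 under rFibcd1, 4 (without non-cachectic library 61) to 8 (without cachectic library 7) in tibialis anterior and 4 to 5 in soleus. It stayed 0 to 0 for rFibcd1 with either tumour and for their difference. It ran from 0 to 1 for the melanoma difference in diaphragm minus tibialis anterior (Slc7a2, without diaphragm library 20 or tibialis anterior library 6) and in diaphragm minus soleus (Bcat2, without soleus library 8), from 3 to 4 in tibialis anterior minus soleus, and for levels from 7 to 7, 8 to 9 and 4 to 4.

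No paired analysis was possible because, within a muscle, the groups compared share no library numbers. Between muscles, the number as a replicate block gave 5 genes called in tibialis anterior minus soleus (3 without it, and 0 after scaling), 1 in diaphragm minus tibialis anterior and 1 in diaphragm minus soleus, and for levels 9, 9 and 5 (7, 9 and 4 without it).

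Between tumours and for rFibcd1 within a muscle, the sign turned in 26 values, of which 3 had a call on either side. For levels between muscles, scaling turned Bckdha in diaphragm minus tibialis anterior (0.26 to -0.31, called both times) and, in tibialis anterior minus soleus, Bckdha (-0.49 to 0.14, called before), Slc3a2 (-0.39 to 0.20) and Glul (-0.46 to 0.16). After scaling, Bcat2 was -0.039 in mock diaphragm, -0.073 between tumours under rFibcd1, -0.014 for rFibcd1 in non-cachectic mice and -0.081 in tibialis anterior. Bckdk was -0.14 for rFibcd1 in non-cachectic mice and -0.42 in tibialis anterior. Slc1a5 was -0.13 in tibialis anterior. Slc7a5 was -0.0079 and -0.055 for rFibcd1 in cachectic and non-cachectic mice and -0.057 in soleus. With state as a term, Bcat2 was -0.013 between tumours under rFibcd1, and Slc7a8 and Slc1a5 were 0.014 and 0.019 for rFibcd1 in cachectic mice. With the clock index, Slc7a5, Slc7a2 and Slc1a5 were -0.018, 0.035 and 0.0083 for rFibcd1 in cachectic mice, and Slc7a5 and Glul -0.022 and 0.25 in non-cachectic mice. In high-state libraries, Slc7a2 was 0.24 in mock diaphragm, Slc1a5 and Bcat2 were -0.011 and -0.10 between tumours under rFibcd1, Slc7a5, Slc7a2 and Slc1a5 were -0.021, 0.24 and 0.029 for rFibcd1 in cachectic mice, and Glul was 0.031 in non-cachectic mice. Without the libraries numbered 8, Slc7a5 was -0.16 in soleus.

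Without 1 library, 12 results took both signs, none of them called. For rFibcd1 in cachectic mice the ranges were -0.12 to 0.16 for Slc7a5, -0.077 to 0.0034 for Bcat2, -0.23 to 0.14 for Slc1a5, -0.16 to 0.17 for Slc7a8 and -0.18 to 0.11 for Slc7a2. In non-cachectic mice they were -0.037 to 0.0093 for Bckdha and -0.0054 to 0.13 for Slc7a5. Between tumours they were -0.042 to 0.040 for Bcat2 under rFibcd1, -0.20 to 0.082 for Slc7a2 in mock diaphragm, -0.13 to 0.0018 for Bckdha in tibialis anterior, and -0.61 to 0.038 for Slc1a5 and -0.16 to 0.13 for Slc7a5 in soleus.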
